A study of Mus musculus with 10 samples.

Results

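The small nucleolar RNA (snoRNA) host genes described here were 9 of the 55536 genes in the bladder count files: Snhg1, Snhg3, Snhg5, Snhg6, Snhg8, Snhg11, Snhg12, Snhg17 and Gas5. They were taken by name, as RNAs known to carry snoRNAs, and the set was chosen by the measured fold changes of Snhg11 and Snhg17, which were low in both knockouts against WT, so those values are given without a test. RNA-seq was done on bladder tissue of C57BL/6 mice in 4 wild type (WT) libraries, 3 OMD-/- libraries and 3 PRELP-/- libraries. OMD (osteomodulin) and PRELP are secreted small leucine-rich proteoglycans of the extracellular matrix, and the study asked what their loss does to the bladder. Both knockouts are constitutive, with β-galactosidase knocked in for exons 2 and 3, so that every cell of the animal carries the change, and each was set against WT of the same strain name. Age, sex, treatment and the pooling of animals were not given for these libraries in the sources used here, so p-values measure only the spread between these libraries. The records describe homogenised bladder tissue, whereas the study speaks of isolated bladder epithelia and gives other group sizes, and the groups used here are those of the labels.

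Host genes of this kind are transcribed like messenger RNAs, but much of their product lies in the introns. After splicing, the introns are trimmed to snoRNAs. Box C/D snoRNAs guide 2′-O-methylation of ribosomal RNA together with fibrillarin, Nop56, Nop58 and Snu13, and box H/ACA snoRNAs guide pseudouridylation together with dyskerin (Dkc1), Nhp2, Nop10 and Gar1. The spliced host RNA often begins with a run of pyrimidines, the 5′ terminal oligopyrimidine start of ribosomal protein genes, and is often degraded in the cytoplasm by nonsense-mediated decay (NMD). Gas5 was named for its accumulation in growth-arrested cells and is the best known of these RNAs.

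Snhg17 and Snhg11 are neighbours on mouse chromosome 2 in build GRCm38 and are read away from each other. Snhg17 lies on the minus strand at chr2:158353700-158361580 and Snhg11 on the plus strand at chr2:158375638-158386145, with 14058 bases between their annotated starts and no annotated gene in that gap. Snhg17 is annotated as a processed transcript and Snhg11, unlike the other members, as protein-coding. GENCODE vM21 places 3 snoRNA genes in Snhg17 and 2 in Snhg11. All 5 are printed because they are the products of the pair for which the set was chosen. They are 113 to 133 bases long and each ends in the ACA that defines the H/ACA class. Capitals mark that tail and every match to the H box (ANANNA) in the middle of the RNA, between 35% and 65% of its length.
Gm24411 in Snhg17: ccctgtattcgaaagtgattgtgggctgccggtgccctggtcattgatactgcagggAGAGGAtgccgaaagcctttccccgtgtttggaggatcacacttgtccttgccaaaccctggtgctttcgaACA
Gm26003 in Snhg17: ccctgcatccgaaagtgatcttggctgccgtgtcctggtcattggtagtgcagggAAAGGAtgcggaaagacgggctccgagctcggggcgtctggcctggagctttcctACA
Gm23925 in Snhg17: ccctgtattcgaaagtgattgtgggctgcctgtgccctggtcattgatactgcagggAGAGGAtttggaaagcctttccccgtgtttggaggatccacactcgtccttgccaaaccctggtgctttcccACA
Gm25187 in Snhg11: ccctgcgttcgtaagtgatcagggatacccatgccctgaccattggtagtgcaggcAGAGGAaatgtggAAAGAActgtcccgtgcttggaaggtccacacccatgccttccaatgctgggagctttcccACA
Gm25129 in Snhg11: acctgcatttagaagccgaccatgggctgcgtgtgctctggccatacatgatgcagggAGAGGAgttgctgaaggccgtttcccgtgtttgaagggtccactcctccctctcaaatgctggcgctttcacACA

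The snoRNAs of the pair shared much of their sequence. Gm24411 and Gm23925, both in Snhg17, were 93.9% identical in a global alignment. The 6 pairs across the hosts were 60.4% to 75% identical, and the 2 snoRNAs of Snhg11 were 68.4% identical to each other. In 4 of the 5 the H box read AGAGGA, and Gm25187 held a further match. In Gm26003 it read AAAGGA.

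**Figure D1:**
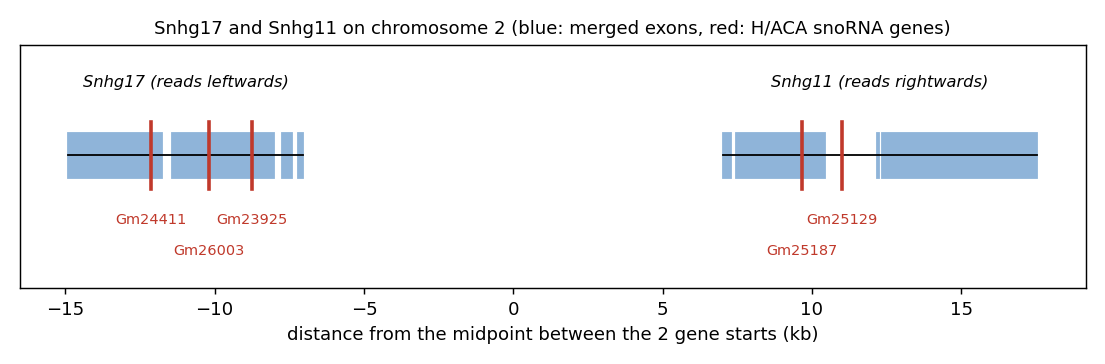
Map of Snhg17 and Snhg11, with distance in kb from the midpoint between the annotated gene starts on the x axis, merged exons of all isoforms as blue boxes and snoRNA genes as red lines. The 3 snoRNAs of Snhg17 and Gm25187 of Snhg11 lie inside the merged exons, and Gm25129 lies in an intron.

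RefSeq promoter windows (build GRCm38.p6, 250 bases before to 50 bases after the start) were found for 8 of the 9 members, in 10 windows. Shown are the pair on chromosome 2 and, for contrast, Gas5 and Snhg8, which did not follow that pair. The first base of the transcript is in capitals, as are matches on either strand to CACGTG (E-box), TGACGTCA (CRE), CCAAT (the CCAAT box), GCCATNTT (YY1) and TATAAA (the TATA box).
Snhg11, chr2:158375463-158375762, plus strand: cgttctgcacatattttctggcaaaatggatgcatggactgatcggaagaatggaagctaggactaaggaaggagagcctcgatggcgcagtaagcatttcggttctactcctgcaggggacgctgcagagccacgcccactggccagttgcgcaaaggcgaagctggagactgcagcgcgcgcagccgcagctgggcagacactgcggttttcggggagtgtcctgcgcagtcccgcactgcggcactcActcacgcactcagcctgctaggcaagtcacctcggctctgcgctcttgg
Snhg17, chr2:158361473-158361772, minus strand: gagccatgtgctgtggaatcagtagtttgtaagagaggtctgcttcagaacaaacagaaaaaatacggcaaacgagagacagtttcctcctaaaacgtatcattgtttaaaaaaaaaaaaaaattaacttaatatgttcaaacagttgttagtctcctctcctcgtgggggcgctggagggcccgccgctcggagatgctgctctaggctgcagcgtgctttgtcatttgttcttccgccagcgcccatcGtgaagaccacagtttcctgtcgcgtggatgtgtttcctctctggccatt
Gas5, chr1:161034916-161035215, plus strand: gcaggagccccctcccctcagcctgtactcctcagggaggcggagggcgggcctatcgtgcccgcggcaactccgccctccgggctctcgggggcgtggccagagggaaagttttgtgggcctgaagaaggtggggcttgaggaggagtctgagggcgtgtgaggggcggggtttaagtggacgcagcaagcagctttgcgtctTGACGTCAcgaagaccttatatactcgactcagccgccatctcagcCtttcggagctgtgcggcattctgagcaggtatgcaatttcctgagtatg
Snhg8, chr3:123508287-123508586, minus strand: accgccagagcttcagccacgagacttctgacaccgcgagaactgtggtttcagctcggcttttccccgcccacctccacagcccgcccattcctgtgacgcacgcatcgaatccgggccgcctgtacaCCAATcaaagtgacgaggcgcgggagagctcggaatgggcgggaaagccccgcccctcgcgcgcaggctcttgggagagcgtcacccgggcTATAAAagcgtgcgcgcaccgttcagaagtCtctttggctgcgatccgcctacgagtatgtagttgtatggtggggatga

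None of these 5 motifs was found in the windows of Snhg11 and Snhg17. The second Gas5 window, the one shown, held TGACGTCA, which occurs in 1.79% of all 32851 windows. The first Gas5 window held none of the 5 motifs. Snhg8 held a CCAAT box and a TATA box. The TATA box was found in 4 of the 10 member windows against 13.6% of all windows, the CCAAT box in 3 against 37.4%, the YY1 motif in 1 against 6.05%, and the E-box in 0 against 7.15%. A C followed by at least 4 pyrimidines, within 5 bases of the annotated start, was present in 4 of the 10 member windows. They were the second window of Gas5 and those of Snhg8, Snhg12 and Snhg3. Such a start was present in 18.3% of all windows. The windows of Snhg11 and Snhg17 did not hold it. CG dinucleotides numbered 14 to 36 in the member windows, where the median of all windows was 7. A match is a description of the letters only, and the TATAAA of Snhg3 lay 23 bases after its annotated start.

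Depth was 20391437 to 46269079 counts per library, highest in WT replicate 1. The targeted genes were checked first. Prelp had 46 to 74 counts in PRELP-/- libraries and 4848 to 15890 in WT. Omd had 0 counts in the 3 OMD-/- libraries, but only 0 to 12 in WT, so it hardly checks that label. PRELP-/- replicate 1 stood apart from replicates 2 and 3 of its group, by a mean chi-square per gene of 220 to 223. The other 2 were at 3.57 from each other, so calls in PRELP-/- are given with and without replicate 1. OMD-/- replicate 1 also stood apart, at 26.8 and 24.5 from replicates 2 and 3, which were at 3.1. In WT, replicates 1 and 2 were at 11.6 and replicates 3 and 4 at 8.3, against 28.9 to 49.3 across these pairs. Sex was not given, and Y-linked and X-inactivation transcripts divided the groups: Ddx3y had 3330 and 1337 counts in WT replicates 1 and 2 and 0 in WT replicates 3 and 4. Xist had 107 and 129 counts in the former and 23019 and 27694 in the latter. OMD-/- replicates 2 and 3 had 9 and 5 counts of Ddx3y beside 2094 and 1677 of Xist, and PRELP-/- replicate 1 had 695 beside 7. OMD-/- replicate 1 and PRELP-/- replicates 2 and 3 had 118 to 155 beside 810 to 1212. Uroplakin (umbrella cell) markers summed to 7759 to 19406 CPM (counts scaled to library size, TMM-normalised) in every library, and smooth muscle and fibroblast markers were present too.

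In WT bladder, Gas5 and Snhg8 were the most abundant members per exon length. Gas5 stood at 30.1 ± 5.35 CPM per kb of merged exon (SD, n = 4) and Snhg8 at 25.1 ± 3.3, and their ranges overlapped. Snhg11 followed at 12.2 ± 0.955, separate from both Snhg8 above and Snhg5 below. Snhg5 (5.36 ± 1.78), Snhg6 (5.15 ± 2.55), Snhg1 (4.36 ± 1.68), Snhg12 (3.68 ± 0.552) and Snhg17 (3.28 ± 0.441) formed a run in which each overlapped the next. Snhg3, at 0.147 ± 0.0637, was barely detected. Merged exons of isoforms that keep introns cover 81.1% of Snhg11 and 89.5% of Snhg17, so these counts do not separate spliced from intron-keeping RNA.

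Of the members tested, Snhg11 and Snhg17 had the largest differences from WT in both knockouts. Snhg11 had 5705, 2484, 2192 and 2249 counts in WT replicates 1 to 4, against 71, 100 and 93 in OMD-/- and 27, 110 and 83 in PRELP-/-. Every knockout library lay far below every WT library. After scaling, WT stood at 104 ± 8.14 CPM (SD, n = 4), whereas OMD-/- stood at 3.97 ± 0.506 (n = 3) and PRELP-/- at 3.27 ± 1.57 (n = 3). The fitted log2 fold change was -4.73 (SE 0.12) in OMD-/- and -5.00 (SE 0.35) in PRELP-/-, or 26.5-fold and 32.1-fold lower. Without PRELP-/- replicate 1 the latter was -4.66.

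Snhg17 had 1139, 436, 562 and 598 counts in WT, 34, 76 and 56 in OMD-/- and 41, 67 and 41 in PRELP-/-. Again no knockout library reached the lowest WT library. Scaled levels were 23.1 ± 3.11 CPM for WT, against 2.48 ± 0.814 for OMD-/- and 2.3 ± 0.403 for PRELP-/-. The log2 fold change was -3.23 (SE 0.22) in OMD-/- and -3.35 (SE 0.20) in PRELP-/-, or 9.4-fold and 10.2-fold. Both genes were also low in the comparison of WT replicates 3 and 4 with OMD-/- replicates 2 and 3, the libraries with fewer than 10 Ddx3y counts, at -4.53 for Snhg11 and -3.14 for Snhg17. These values chose the set and are given as a description.

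**Figure D2:**
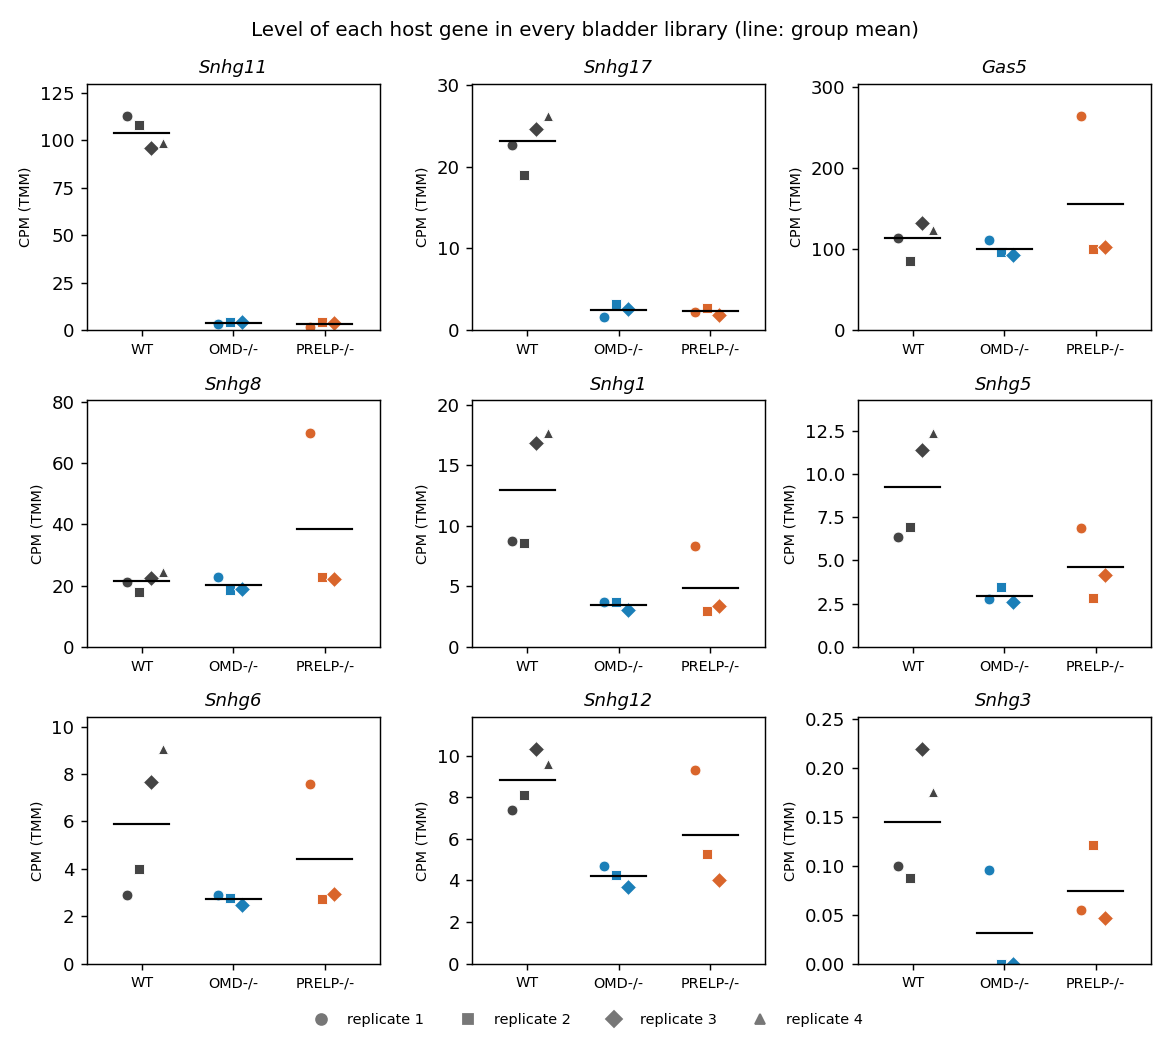
CPM (TMM-normalised, y axis from 0) of the 9 host genes in every library, grouped as WT, OMD-/- and PRELP-/-, with marker shape for replicate number and a line at the group mean. Snhg11 and Snhg17 lie near 0 in all 6 knockout libraries, and PRELP-/- replicate 1 is the highest library of all for Gas5 (264 CPM) and Snhg8 (69.9 CPM).

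Gas5 and Snhg8, the abundant members, showed no such drop. Gas5 had 5669, 1959, 3008 and 2803 counts in WT, 2329, 2262 and 2012 in OMD-/- and 4788, 2478 and 2205 in PRELP-/-. The level was 113 ± 20.1 CPM in WT and 100 ± 9.94 in OMD-/-, with a log2 difference of -0.20 (SE 0.14) that did not pass the test (edgeR quasi-likelihood test, adjusted p = 0.298 over all genes tested). It passed at -0.32 without WT replicate 2 (edgeR adjusted p = 0.0358) and at -0.32 with limma-voom (adjusted p = 0.0414). In PRELP-/- it was 156 ± 94.1 CPM, with a log2 difference of 0.44 (SE 0.35, edgeR adjusted p = 0.447). That excess lay in replicate 1 alone, at 264 CPM against 100 and 103 in replicates 2 and 3, and without it the difference was -0.17 (edgeR adjusted p = 0.476).

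Snhg8, the host of Snora24, had 1054, 408, 513 and 558 counts in WT, 480, 434 and 411 in OMD-/- and 1266, 561 and 480 in PRELP-/-. Only PRELP-/- replicate 1, at 69.9 CPM, left the range of the other libraries, which was 17.8 to 24.5 CPM. The log2 difference was -0.12 (SE 0.13, edgeR adjusted p = 0.538) in OMD-/- and 0.81 (SE 0.39, edgeR adjusted p = 0.218) in PRELP-/-, and 0.06 without replicate 1. Among WT replicates 3 and 4 and OMD-/- replicates 2 and 3 alone, both genes were lower in OMD-/- and passed the test, Gas5 at -0.45 and Snhg8 at -0.35 (edgeR adjusted p = 1.6e-05 and 0.00796). In that setting of 2 against 2 libraries 26.3% of 16740 genes passed as lower.

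The other 4 tested members lay between these extremes. Snhg1, which carries several box C/D snoRNAs, had 439, 196, 384 and 403 counts in WT, 78, 87 and 67 in OMD-/- and 151, 74 and 72 in PRELP-/-. All knockout libraries lay below all WT libraries in CPM. Snhg1 fell by 1.90 on the log2 scale in OMD-/- (SE 0.30, edgeR adjusted p = 0.00154). In PRELP-/- the value was -1.43 (SE 0.44, edgeR adjusted p = 0.0861), and without replicate 1 it passed, at -2.04 (edgeR adjusted p = 0.00759).

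Snhg5, the host of Snord50a and Snord50b, had 320, 159, 260 and 283 counts in WT, 58, 81 and 57 in OMD-/- and 125, 70 and 89 in PRELP-/-. It fell by 1.67 in OMD-/- (SE 0.28, edgeR adjusted p = 0.00161), whose libraries did not overlap WT. In PRELP-/- replicate 1, at 6.9 CPM, overlapped the WT range of 6.36 to 12.4 CPM, and the difference was -1.03 (SE 0.36, edgeR adjusted p = 0.119), or -1.43 without that library (edgeR adjusted p = 0.0205).

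Snhg12, the host of Snora16a, Snora44, Snora61 and Snord99, had 371, 186, 234 and 219 counts in WT, 98, 100 and 80 in OMD-/- and 169, 130 and 86 in PRELP-/-. It fell by 1.09 in OMD-/- (SE 0.18, edgeR adjusted p = 0.0014), with no overlap between the groups. In PRELP-/- replicate 1 overlapped WT, and the difference was -0.54 (SE 0.29, edgeR adjusted p = 0.275), or -0.94 without it (edgeR adjusted p = 0.014). Snhg6, the host of Snord87, had 145, 92, 175 and 206 counts in WT, 61, 65 and 54 in OMD-/- and 137, 67 and 63 in PRELP-/-. Its OMD-/- libraries overlapped WT replicate 1. It passed narrowly in OMD-/-, at -1.13 (SE 0.38, edgeR adjusted p = 0.0489), a call that did not hold without WT replicate 3, WT replicate 4 or any one OMD-/- library, where the adjusted p was 0.0904 to 0.147. In PRELP-/- the value was -0.45 (SE 0.50, edgeR adjusted p = 0.6) and -1.07 without replicate 1 (edgeR adjusted p = 0.138).

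WT libraries differed among themselves in these same genes. Snhg1 stood at 8.73 and 8.55 CPM in WT replicates 1 and 2, the libraries with Ddx3y, and at 16.8 and 17.7 in replicates 3 and 4. Snhg5 followed at 6.36 and 6.93 against 11.4 and 12.4, and Snhg6 at 2.88 and 4.01 against 7.67 and 9.04. Snhg11 ran the other way, at 113 and 108 against 96.1 and 98.6. With Ddx3y-bearing libraries left out, the OMD-/- difference was -2.36 for Snhg1, -1.99 for Snhg5, -1.69 for Snhg6 and -1.34 for Snhg12, and all 4 passed the test (edgeR adjusted p = 1.54e-09 to 3.57e-06), in the same setting in which 26.3% of genes passed as lower. Snhg3, the host of Snora73a and Snora73b, had 0 to 5 counts in every library and was not tested. It shares 135 exon bases with Rcc1 on the same strand.

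Apart from Snhg11 and Snhg17, whose values chose the set, 6 members were tested. In OMD-/- against WT 4 of these 6 passed as lower and 0 as higher, where 15.1% and 14.3% of the 16647 genes tested passed in those directions. Every OMD-/- library lay below every WT library in 3 of the 6, Snhg1, Snhg5 and Snhg12, against 18.5% of all genes. In PRELP-/- 0 of the 6 passed as lower, against 5.89% of 16581 genes, and 0 as higher, against 1.4%. Every PRELP-/- library lay below every WT library in 1 of the 6, Snhg1, against 15.8% of all genes. Without PRELP-/- replicate 1, 3 of the 6 passed as lower, against 11.5% of genes. With Snhg11 and Snhg17 put back, the median log2 fold change over all 8 tested members was -1.40 in OMD-/-. In PRELP-/- it was -0.79, or -1.25 without replicate 1. These medians are lowered by the pair that chose the set. The 6 others ran from -1.90 to -0.12 in OMD-/- and from -1.43 to 0.81 in PRELP-/-. The median of all genes was at most 0.02 in size, and that of all lncRNA genes tested was -0.68 in OMD-/- and -0.57 in PRELP-/-. Both comparisons share the WT libraries, and the set was chosen through them, so nothing is read from these counts about the members.

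**Figure D3:**
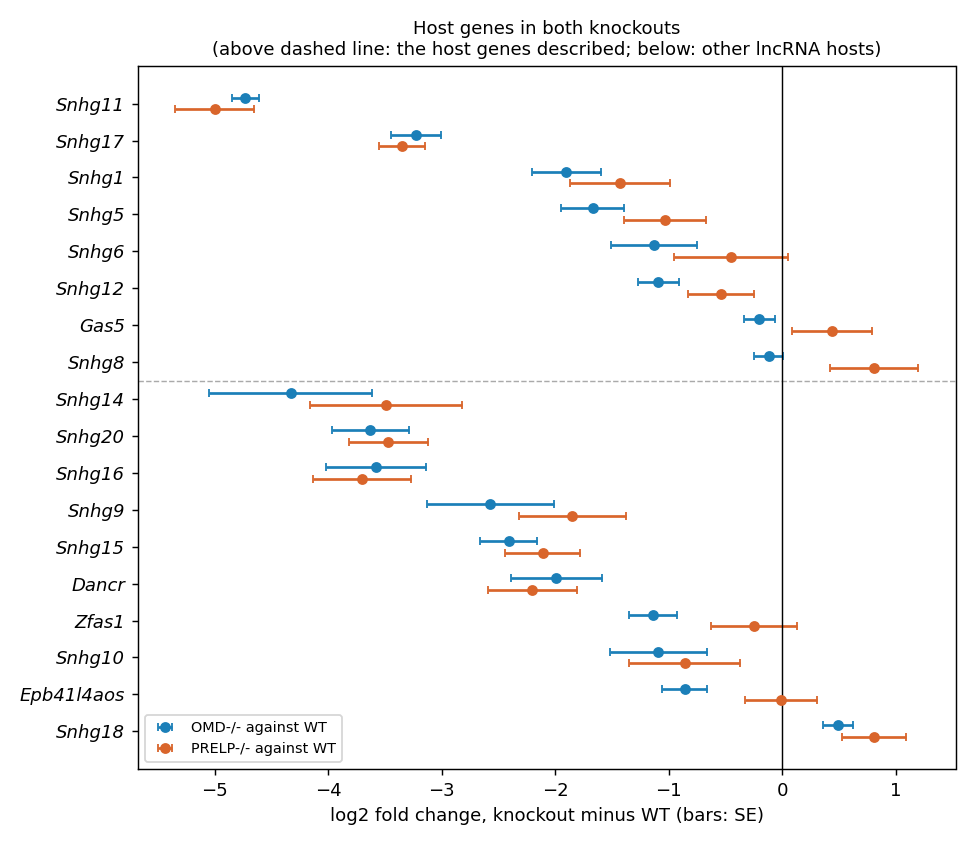
Log2 fold change (x axis, knockout minus WT, bars are SE) of the 8 tested host genes above the dashed line and of 10 other lncRNA hosts below it, in OMD-/- (blue) and PRELP-/- (orange). Snhg11 is lowest at -4.73 and -5.00, Gas5 (-0.20 and 0.44) and Snhg8 (-0.12 and 0.81) change sign between the knockouts, and Snhg18 (0.49 and 0.81) is the only gene plotted that lies above 0 in both.

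The knockouts did not differ from each other in any member by the test. This comparison uses no WT library. The set was chosen because Snhg11 and Snhg17 were low in both knockouts, so the likeness of the knockouts in that pair is a description. Snhg11 was -0.27 in PRELP-/- minus OMD-/- (95% interval -1.19 to 0.65) and Snhg17 was -0.11 (-0.85 to 0.64). The other 6 were 0.48 to 0.94 higher in PRELP-/-, with intervals that included 0 (edgeR adjusted p = 0.69 for each). The widest of them was that of Snhg8, -0.16 to 2.04, so a difference of that size was not detectable here. At an unadjusted p of 0.05, 0 of 8 members passed, where 4.51% of all genes did. After adjustment 1 gene of 15805 (0.00633%) passed, the deleted Prelp itself (edgeR adjusted p = 0.00224). Little can therefore be read from members not passing. With the replicate numbers as a block 43 genes passed. With the block, DESeq2 and limma-voom the members' count stayed at 0. Member libraries did not separate the knockouts in any of the 8, against 14.8% of all genes. Without PRELP-/- replicate 1 the differences of all 8 lay between -0.15 and 0.23.

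The make-up of the host gene RNA shifted accordingly. In WT, Snhg11 made up 35.2% ± 5.89 (SD, n = 4) of the counts summed over the 9 genes and Gas5 37.6% ± 3.31. In OMD-/- Snhg11 made up 2.87% ± 0.579 (n = 3) and Gas5 71.4% ± 1.01, and in PRELP-/- 2.05% ± 1.44 and 70.6% ± 0.906. Snhg8 moved as a share from 7.15% ± 0.324 in WT to 14.3% ± 0.722 and 16.7% ± 1.92, without a called change in its own level. In PRELP-/- replicate 1 Gas5 took 71.4%, within the range of the other knockout libraries, but Snhg11 took 0.403%, Snhg17 0.611% and Snhg8 18.9%, each outside it. Its summed counts were 6705 against 3560 and 3120 in replicates 2 and 3.

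**Figure D4:**
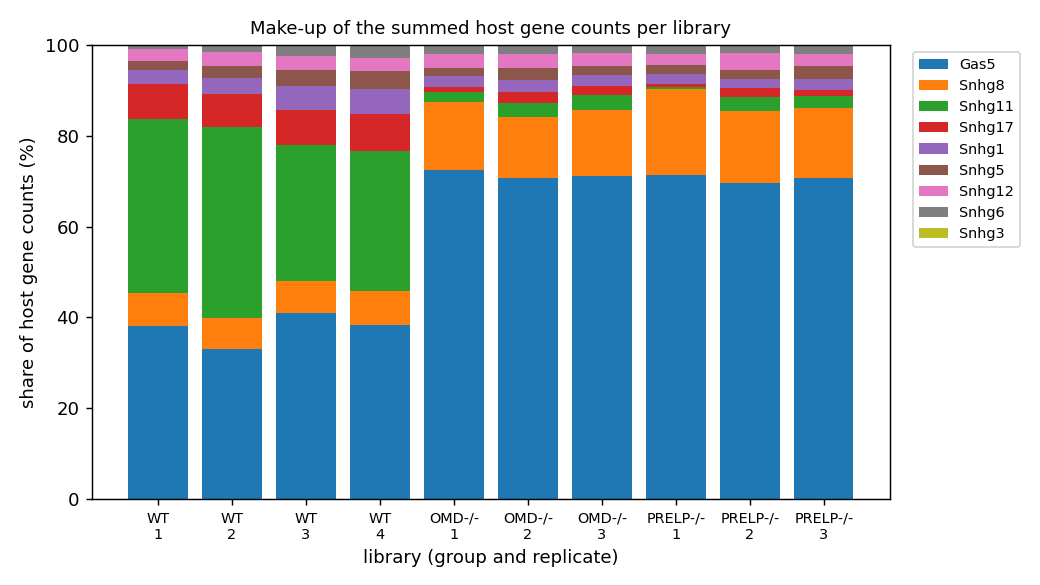
Share in percent (y axis) of the counts summed over the 9 host genes that each gene took in each library (x axis, group and replicate). Snhg11 took 29.9% to 41.9% in WT libraries and 0.403% to 3.29% in knockout libraries, and Gas5 took 33.1% to 41% and 69.6% to 72.5%.

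The snoRNAs themselves were not measured. Of 34 snoRNA genes inside the members on the same strand, 32 had 0 counts in all 10 libraries, and the largest total, that of Gm25129, was 6. The libraries were poly(A)-selected, and 31 of the 34 overlap an exon of a host isoform, where reads shared by 2 genes may be left unassigned. A count of 0 allows up to 3 counts in a library.

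The genes beside the members were read from the same fits. Lbp, the lipopolysaccharide-binding protein gene next to Snhg17, rose by 1.31 in OMD-/- (SE 0.11, edgeR adjusted p = 3.22e-05) and by 0.91 in PRELP-/- (SE 0.19, edgeR adjusted p = 0.0261). Ralgapb on the far side of Snhg11 was at 0.17 and -0.01 and did not pass. Slc3a2, an amino acid transporter subunit 106 bases from Snhg1, rose by 0.45 in OMD-/- (SE 0.07, edgeR adjusted p = 0.00153) and was at 0.36 in PRELP-/-. Zfp949 beside Snhg5 (-0.44) and Sgk3 beside Snhg6 (-0.52) fell in OMD-/- (edgeR adjusted p = 0.0167 and 0.0175). Zbtb37, which overlaps Gas5, did not pass. Of 15 neighbours tested that are not themselves members, 2 passed as lower and 2 as higher in OMD-/-, near the 15.1% and 14.3% of all genes. In PRELP-/- 0 passed as lower and 1 as higher, where 5.89% and 1.4% of all genes did. Without replicate 1 they were 0 and 2, where 1972 and 1835 of 17120 genes passed.

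The other lncRNA hosts of snoRNAs, a list of 12 of which 10 were matched and tested, were mostly lower too. In OMD-/- 8 passed as lower and 1 as higher, with a median of -2.20, and in PRELP-/- 5 and 0, with a median of -1.98, or 8 and 0 without replicate 1. Of all genes, 15.1% and 14.3% passed in those directions in OMD-/-, and 5.89% and 1.4% in PRELP-/-, or 11.5% as lower without replicate 1. The list was drawn up with earlier results of these data known, so these counts are a description. Snhg9, Snhg14 and Snhg16 had 1 to 12 counts in knockout libraries and 17 to 157 in WT. They met the low-count filter against WT, where they were high, but not between the knockouts. Their calls as lower are therefore no support. Snhg20 stood at 10.7 to 23.6 CPM in WT and 1.2 to 1.62 in every knockout library, a log2 difference of -3.63 (SE 0.34, edgeR adjusted p = 8.05e-05) in OMD-/- and -3.47 (SE 0.35, edgeR adjusted p = 0.00109) in PRELP-/-. Snhg14, the long host within the imprinted Prader-Willi region, was at -4.33 in OMD-/- and -3.49 in PRELP-/-, Snhg16 at -3.58 and -3.70, Snhg15 at -2.41 and -2.11, and Dancr at -1.99 and -2.20, all past the threshold in both.

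Zfas1 (-1.14), Snhg9 (-2.57) and Epb41l4aos (-0.86) fell in OMD-/- (edgeR adjusted p = 0.0025 to 0.0089), and stood at -0.25, -1.85 and -0.01 in PRELP-/-. Without PRELP-/- replicate 1 they stood at -0.89, -1.80 and -0.54, and Zfas1 and Snhg9 passed (edgeR adjusted p = 0.023 and 0.0498). Snhg10 did not pass with all libraries, at -1.09 and -0.86. It passed in PRELP-/- without replicate 1, at -1.57 (edgeR adjusted p = 0.0328). Snhg18 was the exception. Its range was 14.6 to 19.8 CPM for WT, 24.1 to 25.3 for OMD-/- and 22.4 to 47.3 for PRELP-/-, and it rose by 0.49 in OMD-/- (SE 0.13, edgeR adjusted p = 0.0169). Of the 7 hosts tested between the knockouts 0 passed (edgeR adjusted p = 0.69 to 0.871).

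A list of protein-coding hosts, which does not include Snhg11, did not share the drop as a whole. Of 34 such genes, 5 passed as higher and 2 as lower in OMD-/-, with a median of 0.18, and 1 and 1 in PRELP-/-, with a median of 0.93. The shares of all genes were 14.3% higher and 15.1% lower in OMD-/-, and 1.4% and 5.89% in PRELP-/-. Without replicate 1, 12 of the 34 were higher and 3 lower, with a median of 0.26, where 1835 and 1972 of 17120 genes passed. The ribosomal protein genes Rpl10 and Rpl7a each rose by 0.38 in OMD-/- (edgeR adjusted p = 0.0151 and 0.0227). The translation factor gene Eif4a2 fell by 0.49 (edgeR adjusted p = 0.00899). Nop56, at once a host and a core protein of box C/D particles, was at -0.38 and -0.53 and passed in both (edgeR adjusted p = 0.00666 and 0.0367). Of 18 snoRNP core and assembly genes, 2 passed as lower in OMD-/-, Nop56 and Znhit3 (-0.77), and 1 in PRELP-/-, with list medians of 0.02 in both, or 2 without replicate 1.

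Of 16 NMD factor genes, 5 passed as lower and 0 as higher in OMD-/-, with a median of -0.09, and 2 and 0 in PRELP-/-, with a median of -0.07, or 4 and 0 without replicate 1. As lower, 15.1% of all genes passed in OMD-/-, 5.89% in PRELP-/- and 11.5% without replicate 1. Smg1, the kinase of the pathway, was -1.07 and -1.43, Smg5 -0.66 and -1.02, and Upf3b -0.74 and -1.36. All passed in both knockouts but Smg1 in PRELP-/- (edgeR adjusted p = 0.0654). Without replicate 1 Smg1 passed there too, at -1.02 (edgeR adjusted p = 0.00143). Pnrc2 fell by 0.31 in OMD-/-. Of 5 stress transcripts known as NMD targets, 2 passed as lower in OMD-/- and 1 in PRELP-/-, or 2 without replicate 1. They were Atf4, the stress transcription factor, at -1.40 and -1.80 (edgeR adjusted p = 2.52e-05 and 0.000301), and Ddit3, which fell by 0.50 in OMD-/- (edgeR adjusted p = 0.0334) and stood at -0.28 in PRELP-/-, or -0.53 without replicate 1 (edgeR adjusted p = 0.0351).

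RNAs known to be retained in the nucleus were lower in the knockouts too. Of 6 nuclear lncRNAs tested, 5 passed as lower in each knockout, with medians of -2.94 and -3.39, and 5 without PRELP-/- replicate 1. The list was drawn up with earlier results of these data known, so these counts are a description. Firre went from 101 ± 9.59 CPM in WT down to 3.68 ± 1.06 with OMD-/- and 3.15 ± 0.581 with PRELP-/-. Neat1, the scaffold of paraspeckles, was at 383 ± 47.2, 20.5 ± 6.62 and 16.4 ± 1.37 CPM, and Malat1, of nuclear speckles, at 930 ± 167, 300 ± 23.3 and 204 ± 29.3. Meg3, from an imprinted locus, was at -4.77 and -5.03 on the log2 scale. The list summed to 1442 to 1694 CPM in WT libraries, 304 to 370 in OMD-/- and 201 to 263 in PRELP-/-. Over all lncRNA genes, 35% of 1218 tested passed as lower in OMD-/- and 19.3% of 1215 in PRELP-/-, and lncRNA genes took 0.75% to 1.03% of counts in WT libraries and 0.469% to 0.54% in knockout libraries. Whether these values have a part in the host gene result was not tested.

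**Figure D5:**
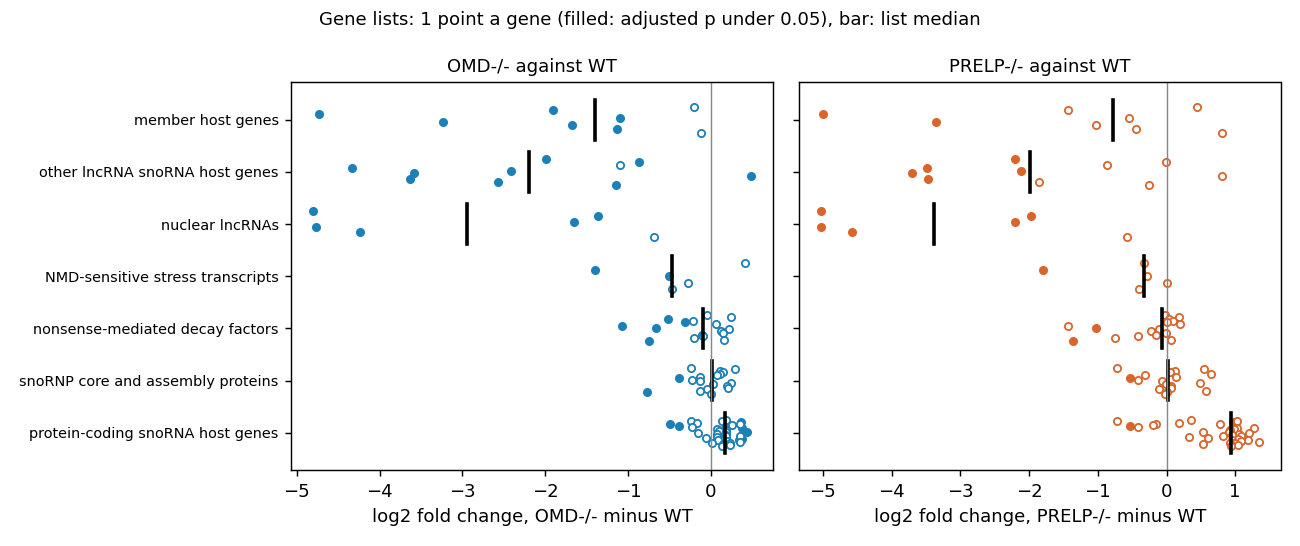
Log2 fold change (x axis, knockout minus WT) of every tested gene of 7 lists, in OMD-/- (left) and PRELP-/- (right), with filled points for an adjusted p under 0.05 and a bar at the list median. The members, other lncRNA hosts and nuclear lncRNAs lie mostly below 0, whereas the listed protein-coding hosts, without Snhg11, have medians of 0.18 and 0.93.

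Genes whose level ran most like Snhg11 over the 10 libraries, among 14385 ranked, were Nxf1 (Pearson r = 0.9965), the messenger RNA export receptor, Rsrp1 (0.9957) and 1810019D21Rik (0.9954). For Nxf1 the levels were 119 ± 6.55 CPM (WT), 39.1 ± 2.72 (OMD-/-) and 37.7 ± 5.05 (PRELP-/-). Those most like Snhg17 were Rgs11 (0.9954), Neat1 (0.9933) and Firre (0.9931), of which Rgs11 went from 33.8 ± 3.1 to 1.06 ± 0.346 and 0.945 ± 0.208 CPM. Snhg11 and Snhg17 ran together at 0.98, Gas5 and Snhg8 at 0.97, and Snhg1 and Snhg5 at 0.98, while Snhg11 and Gas5 were at -0.25. All points share the same 10 libraries in 3 groups, so these coefficients are descriptions.

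No marker of the 7 cell types examined passed as lower in either knockout, where 15.1% (OMD-/-) and 5.89% (PRELP-/-) of all genes did. The shares of all genes that passed as higher were 14.3% and 1.4%. Without PRELP-/- replicate 1, 1835 of 17120 genes passed as higher in PRELP-/-. Of 12 nerve markers, given because Snhg11 is abundant in neurons, 4 were tested and 0 passed in either knockout. They summed to 475 to 548 CPM in WT libraries, 472 to 586 in OMD-/- and 598 to 905 in PRELP-/-, and 1, 4 and 2 of the 12 were at 0 in every library of these groups. Umbrella cell markers summed to 7759 to 9401 CPM in WT libraries, 9973 to 13657 in OMD-/- and 11440 to 19406 in PRELP-/-, and of 6, 2 passed as higher in OMD-/- and 1 in PRELP-/-, or 3 without replicate 1. Basal urothelium markers went from 1205 to 1698 CPM in WT to 1658 to 2219 and 1947 to 2374, with 1 passing as higher in OMD-/- and 0 in PRELP-/-, or 1 without replicate 1. Smooth muscle markers were at 309 to 1272, 386 to 819 and 233 to 250 CPM, with 0 of 7 passing. All 7 were below 0 in PRELP-/-, with a median of -1.99, or -1.74 without replicate 1, and 6 of 7 in OMD-/-, with a median of -0.46. Their WT sums split as Ddx3y did, at 325 and 309 CPM in replicates 1 and 2 and 1272 and 1118 in replicates 3 and 4. The comparison restricted by Ddx3y thus kept only the WT libraries with the higher smooth muscle sums. Fibroblast markers were at 6210 to 7053, 13597 to 16329 and 8068 to 15336 CPM, and Col1a1 and Col1a2 rose in both knockouts (by 1.58 and 1.43 in OMD-/-). In all, 3 of 5 passed as higher in OMD-/- and 2 in PRELP-/-, or 3 without replicate 1. Leukocyte markers were at 33.5 to 36.3, 37.4 to 102 and 25.9 to 37.3 CPM. Within OMD-/-, replicate 1 lay near WT at 37.4 CPM, and replicates 2 and 3 were at 98.8 and 102. Of 5, 3 passed as higher in OMD-/-, Cd79a (4.21), Cd3e (1.54) and Cd68 (1.13), and 0 in PRELP-/- with or without replicate 1. Endothelium markers were at 123 to 289, 336 to 384 and 182 to 364 CPM, with 0 of 4 passing. Within WT they split the other way, at 286 and 289 CPM in replicates 1 and 2 and 133 and 123 in replicates 3 and 4. In tissue RNA, fewer cells of a type and less RNA per cell cannot be told apart, and the part of cell make-up in the host gene values was not tested.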

How the data were processed

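RNA-seq of bladder tissue was analysed in 10 libraries, 4 WT, 3 OMD-/- and 3 PRELP-/-, grouped by their labels. The libraries were poly(A)-selected and strand-specific, with molecular identifiers in the adaptors. The authors deposited 1 integer read count per gene and library, without normalization. The headers of the deposited count files name HISAT2. The submitters' processing notes name bcl2fastq, STAR 2.5.2b, featureCounts and DESeq2 and the builds GRCm38 and hg38. The strand setting and use of the identifiers were not given in the sources used here. Tables of the authors' own DESeq2 comparisons hold a mean, log2 fold change, its error, statistic and p-values, and were not used. All 55536 gene identifiers were matched to GENCODE vM21 (GRCm38).

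Comparisons were fitted separately, 2 groups at a time, in edgeR 4.0.16 in R 4.3.3 (TMM, edgeR's low-count filter, robust two-sided quasi-likelihood test, Benjamini-Hochberg adjustment over all tested genes, threshold 0.05). Levels are TMM-normalised CPM, and correlations used log2 values with a prior count of 2. Alternatives used DESeq2 1.42.0, limma 3.58.1 (voom with quality weights), RLE factors, no filter, all libraries in 1 fit, Y chromosome expression as a covariate, a replicate block and each library left out. The restriction to libraries with fewer than 10 Ddx3y counts was chosen after seeing the data. The fits were tested on simulated data. No libraries were duplicates: the mean chi-square per gene between replicates was 3.1 or more. Deviations from the group mean in same-numbered PRELP-/- and OMD-/- libraries had r = 0.32, 0.192 and 0.157. Those of WT with either knockout had r = -0.119 to 0.144. The labels give no pairing, and with so few libraries these values neither show nor exclude one.

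The members and lists were chosen with earlier results of these data known. Named were all 9 members, every tested gene among the other lncRNA hosts, up to 4 genes per other list with the smallest adjusted p among those past the threshold, members' nearest protein-coding neighbours that passed, Omd and Prelp, and the 3 genes most like Snhg11 and Snhg17 among those tested in all 3 fits with a mean of at least 1 CPM. Neighbours that did not pass, Rcc1, Ddx3y and Xist are named for context. Sequences came from GENCODE vM21 transcripts and RefSeq promoter windows.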

Additional observations from a re-analysis of the deposited data

How the results depend on the processing

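Counts of members called lower in OMD-/- stayed at 5 to 8 in all alternatives, including 5 to 7 with a library left out. All counts and medians of members here include Snhg11 and Snhg17, whose values chose the set. Genes called lower over all genes in OMD-/- ran from 1375 (all libraries in 1 fit) to 4408 (fewer than 10 Ddx3y counts), against 2522 in the main fit. In PRELP-/- the count of 2 was that pair alone. It became 4 with DESeq2, 6 with limma-voom and quality weights, 3 with all libraries in 1 fit and 5 without PRELP-/- replicate 1. In those 4 settings 1742, 3571, 1509 and 1972 of all genes passed as lower, against 977 in the main fit. The members' count was 2 to 5 with a library left out. The members' median in OMD-/- was -1.66 with Y chromosome expression as a covariate, -1.24 with the replicate block, -1.84 in the libraries with fewer than 10 Ddx3y counts and -1.27 to -1.59 with a library left out. In PRELP-/- it was -1.37 with limma-voom and -0.59 to -1.25 with a library left out. Between the knockouts 0 members passed in every alternative.

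Of 336 refits of single members, 300 kept direction and side of the threshold, 14 newly passed, 8 lost the call (all Snhg6 in OMD-/-) and 14 changed sign, none of them past the threshold in either fit. Gas5 in PRELP-/- became -0.24 with limma-voom and -0.17 to 0.68 with a library left out, the lowest without PRELP-/- replicate 1. Between the knockouts the covariate gave -0.41 for Snhg1, -0.23 for Snhg6, -0.24 for Snhg8, 0.44 for Snhg11, -0.12 for Snhg12, 0.44 for Snhg17 and -0.30 for Gas5. Limma-voom gave -0.10 for Snhg1. With a library left out, values ran from -0.15 to 0.74 for Snhg1, -0.56 to 0.06 for Snhg11 and -0.34 to 0.13 for Snhg17, the signs changing without PRELP-/- replicate 1 for the first and second and without OMD-/- replicate 2 or PRELP-/- replicate 3 for Snhg17. The cause was not tested. The labels do not say whether same-numbered libraries were paired. The block lowered the genes called over all genes from 4899 to 3516 in OMD-/- and from 1209 to 115 in PRELP-/-, lost the call of Snhg6 in OMD-/- (-0.73, edgeR adjusted p = 0.117) and changed no other member call. Genes called in PRELP-/- were 2925 with DESeq2, 6973 with limma-voom and 2485 with all libraries in 1 fit, and in OMD-/- 2485 with all libraries in 1 fit and 8989 (4408 lower) in the libraries with fewer than 10 Ddx3y counts. At these depths Snhg3 could not be tested.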
